A study of Mus musculus with 3 samples.

Results

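The 10 genes described here encode the neurofilament triplet (*Nefl*, *Nefm*, *Nefh*), the intermediate filament proteins peripherin (*Prph*) and alpha-internexin (*Ina*), the neuronal beta-tubulin *Tubb3*, the microtubule-associated protein *Map1b*, the stathmins *Stmn2* and *Stmn3* and the growth-associated protein *Gap43*. They were taken by symbol from the 32285 genes of the count tables, and all 10 were found. The study profiled dissociated cochleae of C57/B6 mice by droplet single-cell RNA-seq at postnatal day 14 (P14, 1 library) and postnatal day 28 (P28, 2 libraries, replicates 1 and 2), with no treatment or transgene named in the labels. Each library pooled the 14 ears of 7 mice. Barcodes with 200 to 6000 genes and at most 15% mitochondrial UMIs were used, where a UMI (unique molecular identifier) stands for 1 captured RNA molecule counted at its 3′ end.

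Neurofilaments are the main intermediate filaments of large myelinated axons. They assemble from a light, a medium and a heavy chain, often together with alpha-internexin or peripherin, and set axon calibre, while tubulin, microtubule-associated proteins and stathmins build and remodel the microtubules along which axonal cargo moves. In the cochlea, spiral ganglion neurons (SGNs) carry signals from the inner hair cells (IHCs) to the brain. Type I SGNs, the large majority, contact IHCs, and the sparse, unmyelinated type II SGNs contact outer hair cells (OHCs) and are known for peripherin.

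After filtering, 1662 cells with 7432047 UMIs remained at P14, 5651 cells with 24596587 UMIs in P28 replicate 1 and 7065 cells with 23300859 UMIs in P28 replicate 2. Cells were clustered without the 10 genes and without 32 other cytoskeleton genes, and clusters were named from fixed marker lists. SGN-like cells (333 and 296) and Schwann or satellite glial (SC/SGC-like) cells (71 and 41) formed clusters at P28 only. The 3 libraries held 277, 367 and 285 OHC-like cells and 60, 113 and 76 IHC-like cells, and all others, 1325, 4767 and 6367, are called remaining cells. The 12 SGN markers summed to 12388 and 11949.5 CPM (the usual CPM scale, a gene's UMIs over all UMIs of the summed cells) in SGN-like cells, to 238 to 333 in OHC-like, 79.2 to 114 in IHC-like, 262 to 465 in SC/SGC-like and 118 to 226 in remaining cells. Of the 12, 10 were above 10 CPM in SGN-like cells, and *Snap25* alone gave 5692 and 5588 CPM. *Syt1* went the other way, at 4.38 and 7.72 CPM in SGN-like cells against 66.8 and 81.3 CPM in remaining cells at P28. Median UMIs per cell were 9161 and 12656.5 in SGN-like cells, 3754 to 6510 in OHC-like, 1025.5 to 9310 in IHC-like and 1877 to 2204 in remaining cells. The P14 IHC-like cells were the shallow ones, and the larger of the 2 IHC-like clusters at P28 also carried markers of supporting cells, among them *Sox2*. Libraries shared 10, 20 and 54 cell barcodes. A doublet caller marked 3, 0 and 1 cells and so was not informative, and doublets were left in.

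In the GENCODE M21 annotation of mouse genome build GRCm38, *Nefl* (chr14:68083863-68089095, plus strand) and *Nefm* (chr14:68082590-68124846, minus strand) overlap on opposite strands, and whether the counting used strand is not given in the sources used here. The other genes lie apart, *Nefh* at chr11:4938754-4948064 (minus), *Prph* at chr15:99055174-99058978 (plus), *Ina* at chr19:47014698-47025327 (plus), *Tubb3* at chr8:123411424-123422015 (plus), *Stmn2* at chr3:8509360-8561606 (plus), *Stmn3* at chr2:181306459-181314500 (minus), *Map1b* at chr13:99421446-99516540 (minus) and *Gap43* at chr16:42248442-42340651 (minus). Promoters of 5 of the 10 genes were matched in RefSeq (GRCm38.p6). The 250 bases before the gene start are shown for 3 of them, because their genes differ most in where they were read: *Prph* in few neurons, *Ina* in neurons and faintly in hair cells, and *Map1b* in neurons and in several epithelia. Capitals mark the letters TATAAA on the gene's strand and GGGCGG on either strand, counted backwards from -1 next to the start. Within the window of *Prph* (chr15:99054924-99055173, plus strand, 65.2% G and C) TATAAA began at -31 and GGGCGG, read on the other strand, at -24.
Prph: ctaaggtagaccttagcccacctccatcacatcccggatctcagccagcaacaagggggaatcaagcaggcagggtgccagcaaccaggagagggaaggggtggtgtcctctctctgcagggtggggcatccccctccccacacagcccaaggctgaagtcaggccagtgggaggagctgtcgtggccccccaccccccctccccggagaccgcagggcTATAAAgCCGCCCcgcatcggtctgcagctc
Within the window of *Map1b* (chr13:99516603-99516852, minus strand, 66.4% G and C) TATAAA began at -99 and GGGCGG at -39.
Map1b: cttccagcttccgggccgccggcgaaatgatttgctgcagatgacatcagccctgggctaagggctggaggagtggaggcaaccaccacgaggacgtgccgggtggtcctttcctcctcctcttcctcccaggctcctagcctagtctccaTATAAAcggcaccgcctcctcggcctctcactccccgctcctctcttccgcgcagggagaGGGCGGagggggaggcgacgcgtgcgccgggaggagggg
Within the window of *Ina* (chr19:47014431-47014680, plus strand, 70.8% G and C) GGGCGG was read on the other strand at -111 and -12, and no TATAAA was present.
Ina: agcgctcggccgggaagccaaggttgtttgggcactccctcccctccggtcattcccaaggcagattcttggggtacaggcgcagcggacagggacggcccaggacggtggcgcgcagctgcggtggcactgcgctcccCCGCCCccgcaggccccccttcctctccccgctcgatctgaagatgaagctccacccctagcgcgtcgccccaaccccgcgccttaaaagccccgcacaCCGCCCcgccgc
The matched windows not shown were those of *Tubb3* (68% G and C, GGGCGG at -138 and -46) and *Stmn3* (48.8%, neither string). Over 32851 RefSeq promoter windows of this length the median G and C content was 52.4%, TATAAA was present on the gene's strand in 7.59% and GGGCGG on either strand in 32.7%. The string TCAGCACC, also sought on either strand, was present in 1.32% of windows and, of the 5 matched genes, in *Tubb3* alone (-121). These matches describe the letters only and were not tied to any measured binding.

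Among the cells kept at P28, the neurofilament triplet was read almost entirely in SGN-like cells. In replicates 1 and 2 these held 95.4% and 95.4% of *Nefl* UMIs, 96.2% and 95.8% of *Nefm* and 98.5% and 97.9% of *Nefh*. Shares of a gene's UMIs here and below are of the cells kept. In replicate 1, 75 barcodes left out for over 6000 genes held a further 2777 *Nefl*, 1790 *Nefm* and 3333 *Nefh* UMIs. *Nefl*, the light chain on which the filament is built, reached 2645 and 2639 CPM in SGN-like cells against 2.45 at P14 and 8.49 and 11.2 at P28 in remaining cells. *Nefm*, the medium chain, reached 1746 and 1532 CPM against 0.754, 5.87 and 7.34. *Nefh*, the heavy chain whose long tail forms side arms between filaments, reached 3167 and 3037 CPM against 0.377, 8.49 and 11.3. SGN-like and remaining sums did not come near each other for any of the chains. The log2 fold changes were 8.09 ± 0.46 (SE) for *Nefl*, 8.12 ± 0.52 for *Nefm* and 8.15 ± 0.28 for *Nefh*, with adjusted p-values of 4.73e-09, 1.30e-08 and 1.23e-10 (edgeR quasi-likelihood test on 2 against 3 class sums, Benjamini-Hochberg adjustment over 13632 genes).

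The proportions of the chains were close in the replicates. *Nefl*, *Nefm* and *Nefh* made up 35.0%, 23.1% and 41.9% of 25861 triplet UMIs in SGN-like cells of P28 replicate 1, and 36.6%, 21.3% and 42.1% of 23349 in replicate 2. Most of these cells carried all 3 chains: in cells thinned to 1000 UMIs each, 62.4% and 57.8% held a UMI of every chain and 4.58% and 6.46% held none. No thinned cell of any other class held all 3 chains. Without thinning, 93.1% and 92.9% of SGN-like cells had a *Nefl* UMI (84.3% and 81.3% thinned), against 3.02% and 3.03% of remaining cells (1.42% and 1.64% thinned). The part of free RNA of lysed neurons in the remaining cells was not tested.

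**Figure D1:**
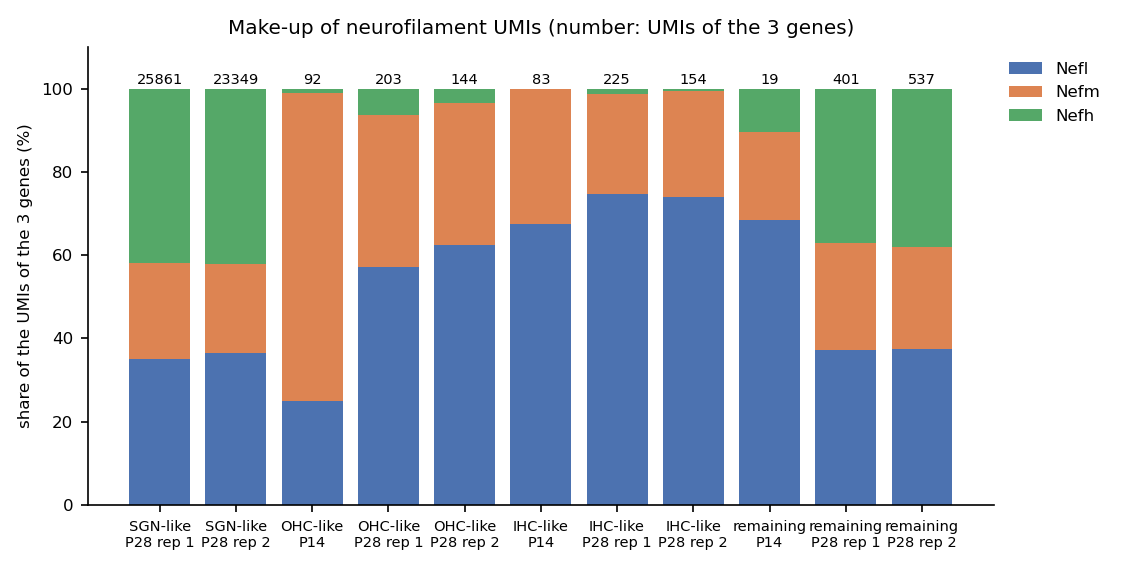
Share of *Nefl*, *Nefm* and *Nefh* (y axis, percent) in the triplet UMIs of each class and library (x axis), with the number of triplet UMIs above each bar. *Nefh* took about the same share in both SGN-like sums (41.9% and 42.1%) and at most 6.40% in OHC-like and IHC-like cells.

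Alpha-internexin and peripherin, which can join the same filaments, differed in extent. *Ina* reached 659 and 698 CPM in SGN-like cells against 1.89 at P14 and 2.11 and 2.56 at P28 in remaining cells, a log2 fold change of 8.11 ± 0.24 (edgeR adjusted p = 1.23e-10, higher in 2 of 2 libraries). *Prph* was the rarest of the 10 genes, with 0 UMIs at P14 and 19 and 26 UMIs in the kept cells of the P28 libraries. It stood at 2.05 and 6.48 CPM in SGN-like cells and at 0, 0.627 and 0.278 CPM in remaining cells. It was too low for the expression filter and was not tested.

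Of the microtubule proteins, *Tubb3*, whose product carries the widely used neuronal epitope Tuj1, reached 795 and 722 CPM in SGN-like cells and 5.47, 3.82 and 3.95 CPM in remaining cells (log2 fold change 7.34 ± 0.35, edgeR adjusted p = 7.98e-10). *Map1b*, which binds and stabilizes axonal microtubules, reached 2068 and 2289 CPM against 77.5, 99.1 and 174, the narrowest gap among the genes that were higher (log2 fold change 4.08 ± 0.28, edgeR adjusted p = 2.60e-08). SGN-like cells held 78.3% and 69.1% of its UMIs at P28, less than for *Tubb3* (97.3% and 96.7%). Both genes were higher in 2 of 2 libraries.

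The stathmins, which bind free tubulin and regulate microtubule turnover, were also read mainly in neurons. *Stmn2*, linked to axon maintenance and regrowth, stood at 513 and 512 CPM in SGN-like cells and at 16.8, 2.79 and 2.50 CPM in remaining cells (log2 fold change 7.25 ± 0.38, edgeR adjusted p = 2.21e-09). *Stmn3* stood at 1489 and 1366 CPM against 6.79, 5.24 and 24.1 (log2 fold change 6.78 ± 0.45, edgeR adjusted p = 1.85e-08). The high P28 replicate 2 value of *Stmn3* in remaining cells included 217 of 433 UMIs from 1 cluster, described further on.

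*Gap43*, a growth cone protein of extending axons, ran the other way. It was read at 3.51 and 4.94 CPM in SGN-like cells (12 and 16 UMIs) and at 18.7 at P14 and 11.9 and 14.6 CPM at P28 in remaining cells, and SGN-like cells held 5.38% and 5.71% of its UMIs. All remaining sums lay above both SGN-like sums. The log2 fold change was -1.80 ± 0.39 (edgeR adjusted p = 0.00134), a call that was lost when either P28 library was left out.

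Of the 9 genes tested, 8 were higher in SGN-like cells, where 32.9% of all genes were, and 1 was lower, where 36.9% of all genes were (69.8% in either direction). Their median log2 fold change was 7.34, against -0.10 over all genes tested. The 8 higher calls held in 17 of 18 alternative settings. The exception, a filter of 10 UMIs in every sum, left only *Map1b* of the 10 genes to test.

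**Figure D2:**
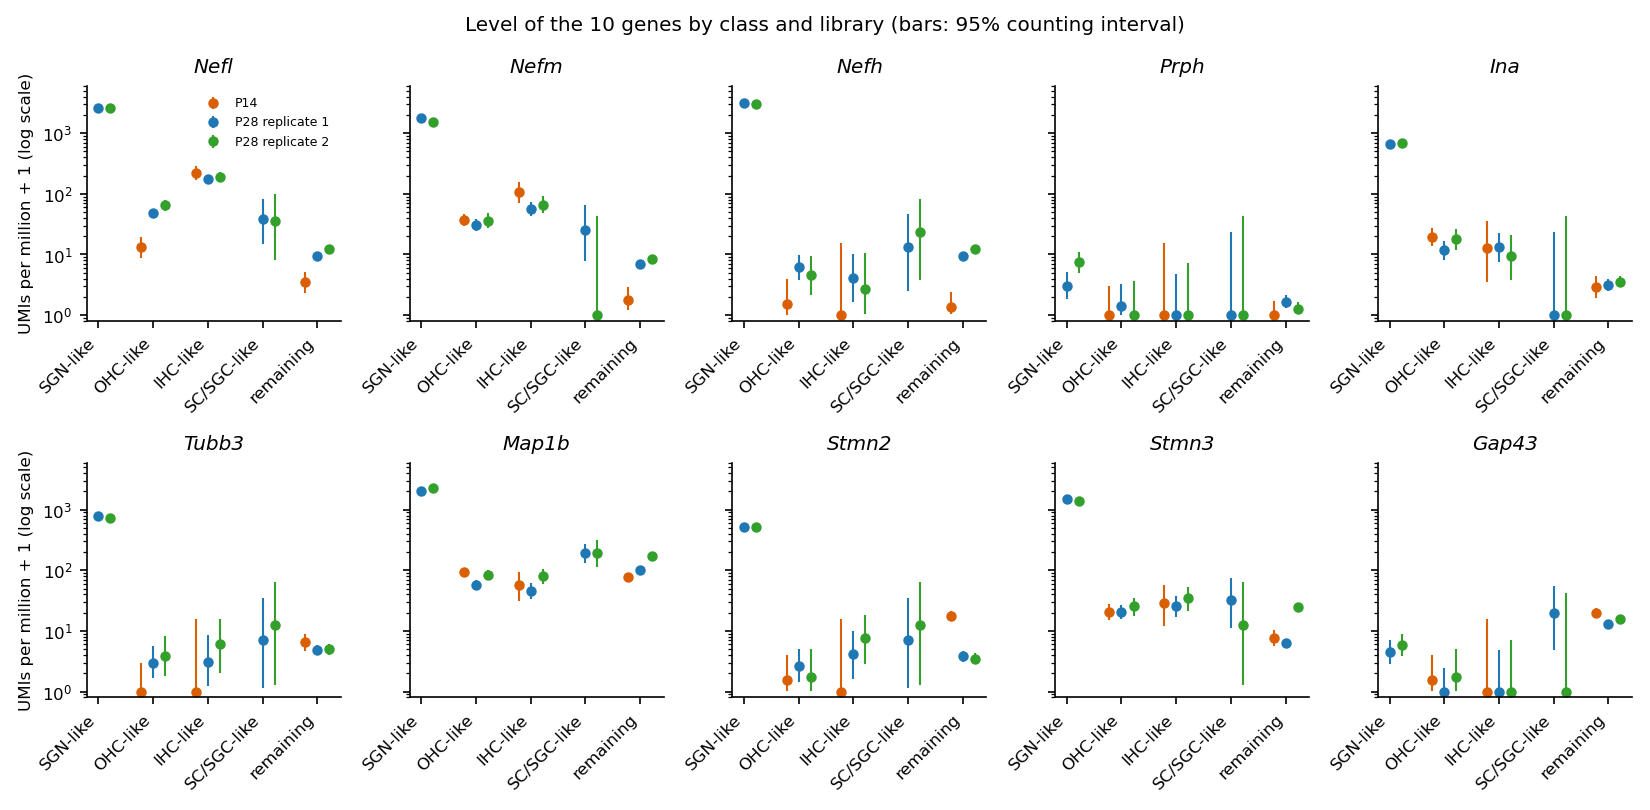
Level of each gene in CPM plus 1 (y axis, log scale) by class (x axis) for the P14 library and P28 replicates 1 and 2. Bars are 95% counting intervals. All except *Prph* and *Gap43* stood at or above 512 CPM in SGN-like cells, and *Gap43* reached 18.7 CPM in remaining cells.

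Among 32 other genes of the axonal and microtubule cytoskeleton, 22 were higher and 6 lower in SGN-like than in remaining cells, 4 did not pass the test, and the median log2 fold change was 3.35. Over all genes 32.9% were higher and 36.9% lower, and the median was -0.10. The 5 with the largest increase were the microtubule-associated protein *Map1a*, the axon initial segment spectrin *Sptbn4*, the dynein intermediate chain *Dync1i1*, the stathmin *Stmn4* and the collapsin response mediator *Crmp1*. *Map1a* reached 2015 and 1946 CPM against 8.66 to 11.9 in remaining cells, a log2 fold change of 7.49 ± 0.36 (edgeR adjusted p = 9.34e-10). *Stmn4* reached 70.7 and 68.8 CPM against 0.334 to 4.90 (log2 fold change 6.87 ± 0.37, edgeR adjusted p = 1.85e-08). The 5 with the largest decrease were the intermediate filament genes *Vim* and *Nes*, the membrane-linked actin regulator *Marcks*, the widely expressed stathmin *Stmn1* and the tubulin *Tubb2b*. *Vim* stood at 7.31 and 10.5 CPM in SGN-like cells against 135 to 201 in remaining cells (log2 fold change -4.72 ± 0.40, edgeR adjusted p = 2.13e-07). *Stmn1* stood at 44.4 and 43.8 CPM against 191 to 1524 (log2 fold change -3.04 ± 0.51, edgeR adjusted p = 1.27e-04), so *Stmn1* fell where *Stmn2*, *Stmn3* and *Stmn4* rose.

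SGN-like cells were next set against SC/SGC-like cells, the glia that wrap the same axons and cell bodies. Of the 9 genes tested, 8 were higher in SGN-like cells, where 18.6% of all genes were, and 0 were lower, where 13.9% were. *Nefh* stood at 12.4 and 22.8 CPM in the SC/SGC-like cells of the replicates (2 UMIs each), for a log2 fold change of 7.72. *Nefl* stood at 37.2 and 34.2 CPM (6.32), and *Nefm* at 24.8 and 0 CPM (6.82). *Map1b* had the highest level of the 10 genes in the glia, 192 and 194 CPM, and its log2 fold change was 3.62. *Ina* had no UMI in the SC/SGC-like cells and was at least 56.4-fold higher in SGN-like cells, against a floor of 3 UMIs over the class (12.0 CPM). *Gap43* stood at 18.6 and 0 CPM in the glia (log2 fold change -1.40 ± 1.09, edgeR adjusted p = 0.362). Of the 465 and 262 CPM to which the SGN markers summed in SC/SGC-like cells, the marker *Sncg* gave 279 and 148 CPM, more than its 61.7 and 57.1 CPM in SGN-like cells. The part of neuronal RNA in the glial levels was not tested. SC/SGC-like cells against remaining cells gave 0 higher calls, where 3.4% of all genes were called, and 0 lower calls, where 3.68% were (7.08% in either direction). None of the 9 genes had an unadjusted p under 0.05 there, and DESeq2 also called 0. Of 200 genes changed 4-fold in simulated counts, only 78 were found in this comparison, so the missing calls do not show equal levels.

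Within the SGN-like cells, 4 clusters were found in both P28 libraries. They were a deep cluster (167 and 218 cells), a shallow one (140 and 39), one whose transcripts were nucleus-like (18 and 23) and one led by *Prune2*, *Rph3a*, *Gldn* and the neurotrophin receptor *Ngfr* (8 and 16 cells). The last made up 2.40% (exact 95% interval 1.04% to 4.68%) and 5.41% (3.12% to 8.63%) of SGN-like cells. The values that follow describe these clusters, which were singled out after their values were seen, and carry no test. Intervals on sums and shares here and elsewhere cover counting error only.

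Within the SGN-like cells *Prph* was read in the *Ngfr*-led cluster, apart from 1 UMI. It stood there at 74.9 CPM (7 UMIs in 3 of 8 cells) and 184 CPM (20 UMIs in 9 of 16 cells). In the deep cluster it had 0 and 1 UMIs in 2988059 and 2949949 UMIs, and in the shallow and nucleus-like clusters it had 0, where counting error allows up to 12.4 and 27.6 CPM and up to 88.7 and 77.98 CPM (upper 95% limits). Remaining cells stood at 0.627 and 0.278 CPM (11 and 5 UMIs), and the part of free RNA in these values was not tested.

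Most other filament and microtubule genes also differed in the *Ngfr*-led cluster. The other SGN-like cells, against which it was set, had most of their UMIs in the deep cluster. *Stmn2* was 3.72 and 3.61 times as high in the *Ngfr*-led cluster as in the other SGN-like cells, at 1775 and 1696 CPM against 478 and 470.5 CPM. *Tubb3* stood at 214 and 129 CPM against 811 and 742. *Nefh* stood at 1412 and 1014 CPM against 3216 and 3107, and *Nefl* at 1379.5 and 1180.05 against 2681 and 2689.6. *Nefm*, *Ina*, *Stmn3* and *Map1b* were lower too, by the least for *Map1b* (1615 and 1438 CPM against 2080.3 and 2319). *Gap43* gave 1 and 3 UMIs and overlapped. The lower levels were not particular to the *Ngfr*-led cluster. The nucleus-like cluster had *Tubb3* at 120 and 148 CPM, and the shallow cluster had *Ina* at 352 and 419 CPM. In all, the counting intervals lay apart in both libraries for 2 of the 10 genes upwards, where 4.56% of all genes did, and for 7 downwards, where 4.69% did.

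Genes linked to type II SGNs that formed a separate list were also higher in the *Ngfr*-led cluster for 6 of 8, although these genes helped to form the cluster. The tyrosine hydroxylase gene *Th* stood at 428 and 562 CPM against 1.20 and 0.639, and *Ngfr* at 1326 and 1429 against 104 and 86.6. Of 8 genes that separate type I subtypes, 5 were lower and *Pcdh20* was higher. Of 32 other cytoskeleton genes, 7 were higher and 10 lower, where 4.56% and 4.69% of all genes were. *Basp1*, a membrane protein of growth cones, stood at 609.6 and 443 CPM against 124 and 141, and *Map1a* at 481 and 443 against 2058 and 1998. None of 8 axon injury genes was apart in the same direction in both libraries.

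**Figure D3:**
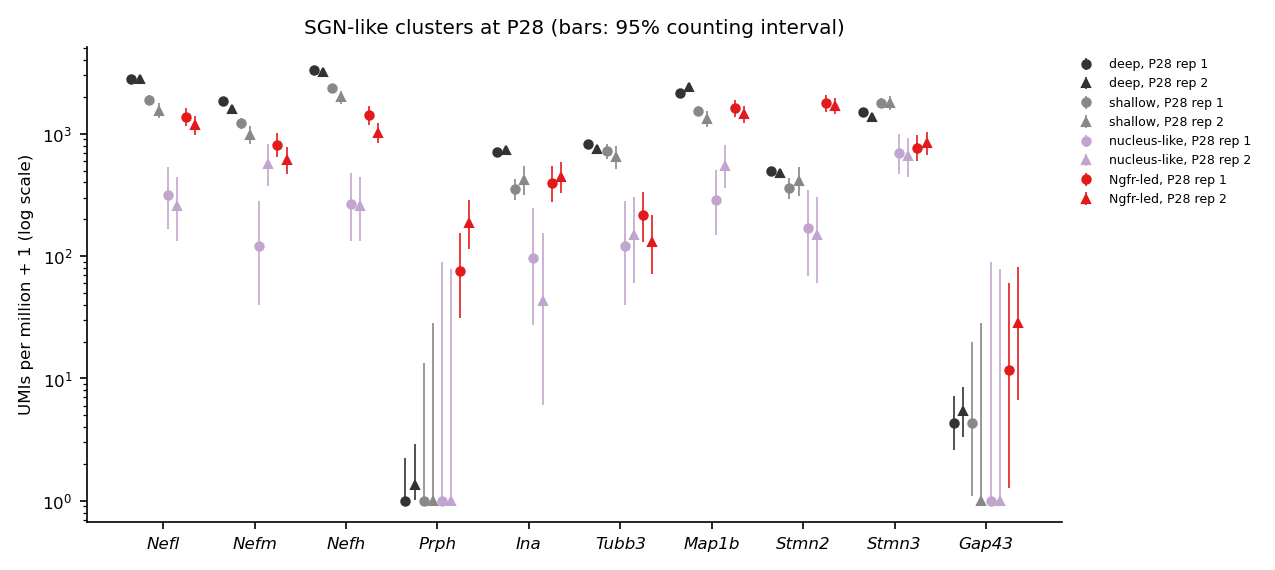
Level of each gene in CPM plus 1 (y axis, log scale) in the 4 SGN-like clusters of the P28 libraries, with 95% counting intervals. *Prph* rose above 1 CPM only in the *Ngfr*-led cluster (74.9 and 184 CPM), where *Stmn2* was also highest. *Tubb3* was low there and in the nucleus-like cluster (120 and 148 CPM).

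The nucleus-like cluster carried the triplet below the deep and shallow clusters. *Nefl* stood at 313 and 254 CPM, *Nefm* at 120 and 571 CPM and *Nefh* at 265 and 254 CPM. In the shallow cluster *Nefl* stood at 1905 and 1549 CPM and *Nefh* at 2347 and 1990.1 CPM, below the deep cluster (2791 and 2780.4 CPM, and 3344 and 3203 CPM). The share of *Nefh* among triplet UMIs nevertheless held at 41.9% and 42.2% in the deep and 42.9% and 44.0% in the shallow cluster. In the nucleus-like cluster it was 37.9% and 23.5%, of only 29 and 51 triplet UMIs, and *Nefm* took 17.2% and 52.9%.

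Hair cells carried the light and medium chains above the level of remaining cells, and little of the heavy chain. In the order P14, P28 replicate 1 and P28 replicate 2, IHC-like cells had 222, 173 and 192 CPM of *Nefl*, OHC-like cells 12.3, 46.5 and 64.5 CPM, and remaining cells 2.45, 8.49 and 11.2 CPM. The medium chain *Nefm* reached 107, 55.7 and 65.6 CPM in the IHC-like sums, while the OHC-like sums held 36.2, 29.7 and 35.1 and the remaining sums 0.754, 5.87 and 7.34. The heavy chain *Nefh* gave 0, 3.10 and 1.68 CPM in the IHC-like sums, the OHC-like sums gave 0.533, 5.21 and 3.59, and at P28 both classes were below remaining cells. Both hair cell classes lay above remaining cells in each library for *Nefl* and *Nefm*.

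In IHC-like cells, 3 of the 9 genes tested were higher than in remaining cells, where 18.2% of all genes were, and 3 were lower, where 30.4% were (48.5% in either direction). *Nefl* rose by 4.48 ± 0.40, *Nefm* by 3.46 ± 0.48 and *Ina* by 1.96 ± 0.37 on the log2 scale (edgeR adjusted p = 1.02e-06, 5.18e-05 and 8.84e-04), each in 3 of 3 libraries. *Ina* stood at 11.9, 12.4 and 8.41 CPM, on 3, 12 and 5 UMIs, and its call was lost without P28 replicate 1, with the stricter limits of 3000 genes and 15000 UMIs and on thinned cells. *Nefh* and *Map1b* were lower by log2 fold changes of -2.28 and -1.29 (edgeR adjusted p = 0.00113 and 0.00164). The call for *Nefh* rests on 4 UMIs and was lost without P28 replicate 2, without the replicate block and with the stricter limits, while that for *Map1b* was lost without either P28 library. *Gap43* had no UMI in IHC-like cells and was at least 9.11-fold lower, against a floor of 3 UMIs over the class (1.65 CPM).

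The share of cells with a *Nefl* UMI was 36.7%, 54.9% and 75.0% in IHC-like cells and 0.679%, 3.02% and 3.03% in remaining cells. The part of free RNA in these shares was not tested. Thinned to 1000 UMIs, the shares were 16.1%, 12.1% and 20.8% against 0.298%, 1.42% and 1.64%. In remaining cells at P28 the triplet UMIs divided as 37.2%, 25.7% and 37.2% (401 UMIs) and 37.4%, 24.6% and 38.0% (537 UMIs), near the SGN-like proportions. In IHC-like cells *Nefh* took 0%, 1.33% and 0.649% of 83, 225 and 154 triplet UMIs, and *Nefl* took 67.5%, 74.7% and 74.0%.

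In OHC-like cells, 3 of the 9 genes were higher than in remaining cells, where 25.6% of all genes were, and 5 were lower, where 39.9% were. The higher genes were again *Nefl* (2.25 ± 0.38 on the log2 scale, edgeR adjusted p = 1.52e-04), *Nefm* (2.59 ± 0.45, 1.84e-04) and *Ina* (2.57 ± 0.25, 1.53e-06), in 3 of 3 libraries and in 17 of 18 alternative settings. OHC-like levels of *Ina* were 18.7, 10.8 and 17.2 CPM. *Gap43* had 2 UMIs over the 3 sums (log2 fold change -5.42 ± 0.60, edgeR adjusted p = 8.60e-06), and *Stmn2* had 6 UMIs (-2.69 ± 0.65, edgeR adjusted p = 0.00238). The call for *Stmn2* was lost without P14 (-0.85) and on thinned cells (-1.39). *Nefh* (-1.18), *Tubb3* (-1.56) and *Map1b* (-0.69) were lower by edgeR (adjusted p = 0.00373, 0.0160 and 0.0236), in 2, 3 and 2 of 3 libraries. These calls were kept in 11 of 17, 11 of 17 and 10 of 18 alternatives that tested the gene. None was called by DESeq2 or without P28 replicate 1, *Nefh* and *Map1b* were also lost without P28 replicate 2 or without the block, and *Tubb3* without P14. *Stmn3*, at 19.7, 19.7 and 24.4 CPM, did not pass (log2 fold change 0.83 ± 0.40, edgeR adjusted p = 0.0851).

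**Figure D4:**
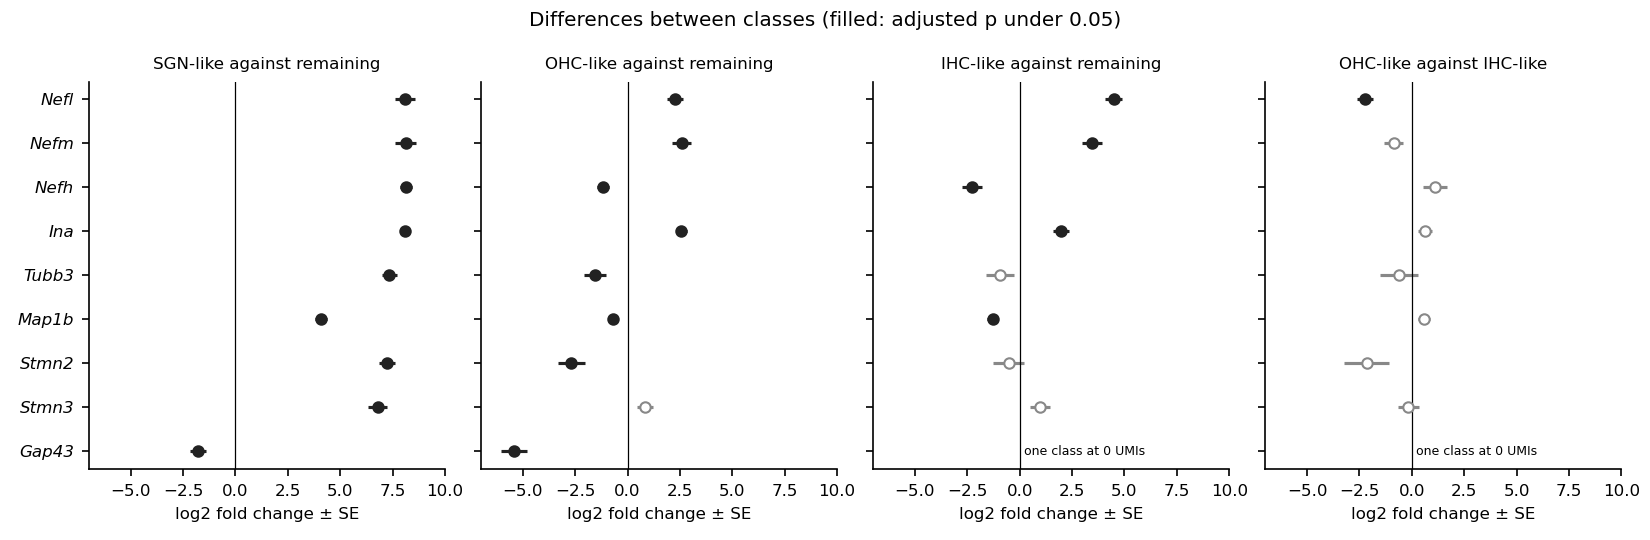
Log2 fold change with its SE (x axis) for the 9 genes tested (y axis) in 4 of the comparisons, filled where the edgeR adjusted p was under 0.05. Against remaining cells, *Nefl*, *Nefm* and *Ina* were higher in SGN-like, OHC-like and IHC-like cells, and *Nefh* was higher in SGN-like cells (8.15) and lower in OHC-like (-1.18) and IHC-like cells (-2.28).

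A direct comparison of the hair cell classes gave 0 higher calls, where 13.5% of all genes were higher in OHC-like cells, and 1 lower call, where 14.2% were. The call was *Nefl*, with a log2 fold change of -2.24 ± 0.39 (edgeR adjusted p = 7.25e-04, lower in OHC-like cells in 3 of 3 libraries). *Nefm* (-0.87, edgeR adjusted p = 0.192), *Ina* (0.62, 0.20) and *Map1b* (0.60, 0.140) did not pass. The comparisons with remaining cells share the remaining sums, so their calls are not independent of each other.

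Of 32 other cytoskeleton genes, OHC-like cells had 6 higher and 17 lower than remaining cells, where 25.6% and 39.9% of all genes were. IHC-like cells had 8 higher and 13 lower, where 18.2% and 30.4% of all genes were. Between the hair cell classes, 1 was higher in OHC-like cells and 10 were higher in IHC-like cells, where 13.5% and 14.2% of all genes were. The 1 gene higher in OHC-like cells was *Map2*, a microtubule-associated protein of dendrites and cell bodies, at a mean of 203 CPM against 29.6 CPM, with 3 of 3 libraries higher (log2 fold change 2.75 ± 0.24, edgeR adjusted p = 3.17e-07). It was named after its values were seen.

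Outside neurons and hair cells, 3 of the genes stood out in particular clusters at P28. The part of free RNA in the cluster levels that follow was not tested. *Map1b* reached 1515 and 1380.5 CPM in an unnamed cluster led by *Ceacam16*, *Tcap*, *Slc26a4* and *Otoa* (164 and 286 cells), where 76.2% and 74.1% of cells had a UMI. It reached 498 and 1728 CPM in a supporting or sulcus epithelial cluster led by *Rubie*, *Frzb* and *Fst* (27 and 93 cells). Erythroid cells stood at 51.9 and 102.5 CPM of *Map1b*, with a UMI in 12.2% and 17.4% of cells. Both sums of the first cluster lay below both SGN-like sums (2068 and 2289 CPM) and above every hair cell and glial sum.

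*Stmn3* reached 786 CPM in an intermediate-like cluster led by *Dct*, *Gpnmb* and *Hpse*, where 53.3% of cells had a UMI. That cluster held 120 cells of P28 replicate 2 and 3 cells of replicate 1, so the level rests on 1 library. Its 217 *Stmn3* UMIs stand against 433 in all remaining cells of that library. The cluster had *Nefh* at 18.1 CPM and *Gap43* at 3.62 CPM, and erythroid cells had *Stmn3* at 0 and 17.7 CPM.

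*Gap43* was highest in clusters led by genes of the extracellular matrix and fibroblasts, such as *Dcn* (decorin). The P28 clusters of this kind were left unnamed. It reached 66.4 and 69.9 CPM in a cluster led by *Dcn*, *Ccl11* and *Aard*, 29.1 and 53.1 CPM in a related cluster led by *Ccl11*, and 59.3 and 54.5 CPM in one led by *Ly6a*. At P14 it reached 98.8 CPM in a fibrocyte or mesenchymal-like cluster led by *Apod* and *Dcn* and 85.0 CPM in one led by *Emilin2*. Erythroid cells stood at 0 CPM at P14 and at 0 and 3.94 CPM at P28. In each of these 5 clusters *Gap43* was above both SGN-like sums (3.51 and 4.94 CPM).

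**Figure D5:**
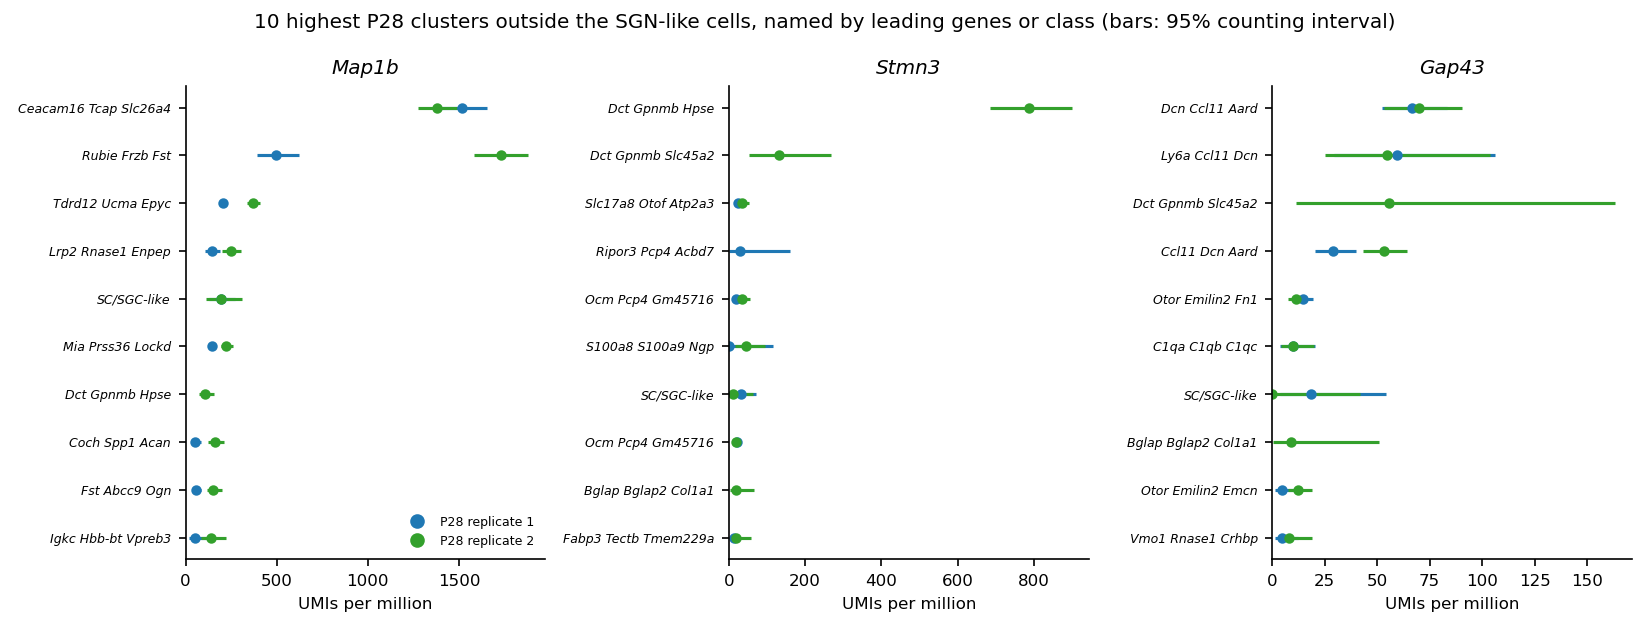
Level in CPM (x axis) of *Map1b*, *Stmn3* and *Gap43* in the 10 highest P28 clusters outside the SGN-like cells (y axis, named by leading genes or class), with 95% counting intervals. *Map1b* reached 1515 and 1380.5 CPM in the *Ceacam16*-led cluster, *Stmn3* 786 CPM in a *Dct*-led cluster and *Gap43* 66.4 and 69.9 CPM in a *Dcn*-led cluster.

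At P14 no cluster was SGN-like. In the kept cells of that library, 1 unnamed cluster of 30 cells led by *Mbp* and *Mobp* held 65 of the 90 *Stmn2* UMIs and 13 of the 29 *Tubb3* UMIs. The cluster held 9 of 92 for *Nefl*, of which IHC-like cells held 56, and 1 of 99 for *Nefm*, of which OHC-like cells held 68. *Stmn2* stood there at 736 CPM, *Map1b* at 962, *Stmn3* at 249, *Gap43* at 169.8, *Tubb3* at 147, *Nefl* at 102, *Ina* at 90.6 and *Nefh* at 11.3 CPM. Its leading genes and *Mog* (1087 CPM) are myelin genes, *Mobp* and *Mog* being known from oligodendrocytes. The 4 kept P14 cells with at least 4 SGN markers all lay in this cluster and carried 65 of its 65 *Stmn2* UMIs and 0 UMIs of *Nefm* and *Nefh*.

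The ages were compared within classes as values, with 1 library at P14, and no test between ages was run. In OHC-like cells *Nefl* was lower at P14 (12.3 CPM) than in either P28 library (46.5 and 64.5 CPM), with counting intervals apart, and the other 9 genes overlapped. Over all genes 13.5% were lower and 8.55% higher at P14 by this measure. Such shares between ages cover only genes with at least 10 UMIs in the class over the 3 libraries. In OHC-like cells *Prph*, *Tubb3*, *Stmn2* and *Gap43* had fewer (1, 9, 6 and 2 UMIs), so their overlap says little. The P14 OHC-like clusters differed in *Nefl*, at 3.20 CPM in 194 cells, 32.9 CPM in 52 cells and 0 in 31 cells. The interval of the 52-cell cluster (19.8 to 51.3 CPM) overlapped those of the larger P28 OHC-like cluster. That P28 cluster stood at 41.1 CPM (32.2 to 51.6) and 40.5 CPM (28.5 to 55.9) in replicates 1 and 2. The smaller P28 OHC-like cluster stood at 60.8 CPM (43.8 to 82.1) and 110 CPM (82.4 to 144). Its replicate 1 interval overlapped that of the 52-cell cluster and its replicate 2 interval lay above it. Median UMIs per cell were 10200 in the 52-cell cluster, 4682 in the larger and 9402 in the smaller P28 cluster. In IHC-like cells all 10 genes overlapped, where 5.69% of all genes were lower and 5.02% higher. *Nefh*, *Prph*, *Tubb3*, *Stmn2* and *Gap43* had only 4, 0, 5, 7 and 0 UMIs there, too few for their overlap to be informative. In remaining cells *Nefl*, *Nefm*, *Nefh* and *Map1b* were lower at P14, where 19.6% of all genes were, and *Stmn2* was higher, where 18.2% were. The P14 *Stmn2* level of remaining cells, 16.8 CPM, rests on 89 UMIs, of which the *Mobp*-led cluster held 65. Among the cells kept, SGN-like cells, and with them most UMIs of these genes, were clustered at P28 only. Age and the presence of neurons among kept cells therefore cannot be told apart in the library totals.

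Genes with the most similar profile were sought over 57 sums of named cell types or unnamed clusters per library, by Pearson's r of log2(CPM + 10). The sums share libraries, and SGN-like sums weigh heavily in each r, so these values are descriptions. The closest genes were *Unc80* for *Nefl* (r = 0.91), *Hecw1* for *Nefm* (0.95), *Diras1* for *Nefh* (0.94), *Onecut2* for *Ina* (0.95), *Ttc9b* for *Tubb3* (0.95), *Tagln3* for *Stmn2* (0.92) and *Gpr158* for *Stmn3* (0.90). *Nefm* was the second closest gene of *Nefl* (0.90). *Map1b* was less tightly matched, by *Rasgef1b* (0.81) and the axonal microtubule protein *Mapt* (0.77), and *Gap43* was matched by *Pcdh9* (0.81). Among the members themselves *Tubb3* and *Stmn2* ran together at r = 0.90 and *Nefl* and *Nefm* at 0.90, while *Gap43* ran between -0.11 and 0.19 with the other 9. *Prph* never reached 50 CPM in these sums, and its highest r was 0.62 (*Sv2b*). Over 79 sums that keep each cluster apart, an alternative chosen after seeing the data, the 3 genes closest to *Prph* were *Fstl5*, *Necab1* and *Gpr149* (r = 0.95, 0.95 and 0.94). The *Ngfr*-led cluster, where *Prph* was read, entered these sums with the 16 cells of P28 replicate 2 only. These 3 values therefore rest mainly on 1 sum of 1 library. There *Snap25* was closest to *Nefl* (0.91) and *Ina* (0.94), and *Gpr158* stayed closest to *Stmn3* (0.91). With log2(CPM + 1) over the 57 sums, *Snap25* was closest to *Nefl* (0.86), *Nefm* (0.84), *Ina* (0.82) and *Stmn3* (0.80). *Sncb* was then closest to *Nefh* (0.83), *Pcsk1n* to *Tubb3* (0.84) and *Stmn2* (0.76), and *Sv2b* stayed closest to *Prph* (0.69). The closest gene thus changed with the setting for most members.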

How the data were processed

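Libraries were made with the 10x Genomics 3′ kit v3.1. The authors deposited raw UMI counts per gene and barcode for each library (unit counts). The matrix headers name Cell Ranger 5.0.1, the submitters' processing notes 6.0.1 and build mm10. Barcodes with 200 to 6000 genes and at most 15% mitochondrial UMIs were kept, 66.1%, 47.3% and 38.8% of 2513, 11948 and 18196. The study's stated limits of 3000 genes and 15000 UMIs were an alternative. Clusters were computed with Seurat 5.3.0 (P14 alone, P28 libraries integrated, 2000 variable genes, 30 components, resolution 1) and named from markers, so names are rebuilt and can differ from the study's. No doublets were removed.

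Deposited counts were summed per class and library (at least 10 cells) and fitted in 1 edgeR 4.0.16 quasi-likelihood model with class and library as terms, TMM scaling, edgeR's expression filter and Benjamini-Hochberg adjustment, with a threshold of 0.05. Classes of a library come from the same pooled mice, so the library pairs the sums. Deviations of OHC-like, IHC-like and remaining sums of a library correlated at 0.20 to 0.45, and pairs with SGN-like or SC/SGC-like sums at -0.03 to 0.17. P-values measure the spread of class sums after differences between libraries, 1 pool of mice each, are taken out. All 5 classes share 1 estimate of that spread. SGN-like and SC/SGC-like sums, present at P28 only, thus borrow it from the other classes. On simulated counts with 200 genes changed 4-fold among the genes of each comparison, 179 were found for SGN-like against remaining cells and 67 for SGN-like against SC/SGC-like cells. The genes named are the 10 members, the 5 other cytoskeleton genes with the largest change each way and the 3 genes most like each member, except where said. Members and lists were chosen with earlier results of these data known. Alternatives covered normalization, filters, clustering, thinning, DESeq2 1.42.0 and each library left out.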

Additional observations from a re-analysis of the deposited data

Results flagged for a closer look

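Barcodes outside the limits also carried the 10 genes, above the level that a count of 0 allows. Barcodes with over 6000 genes held them at 3063.5 CPM at P14 (25 barcodes), 6325 in P28 replicate 1 (75) and 2285 in P28 replicate 2 (3), against floors of 2.87, 1.42 and 33.3. Those with over 15% mitochondrial UMIs held them at 332, 471 and 469 (498, 5986 and 10778 barcodes), against floors of 4.51, 0.367 and 0.223. At P14 the 25 barcodes had 457 *Nefh* UMIs, where the 1662 kept cells had 3. Of these, 4 barcodes had at least 4 SGN markers, with *Nefl* at 2555, *Nefm* at 2027.5, *Nefh* at 2458, *Stmn2* at 1759 and *Map1b* at 2834 CPM, and *Prph* at 0. *Gap43* stood at 769 CPM there, all of its 143 UMIs in 1 barcode.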

How the results depend on the processing

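No call of the 10 genes reversed. Of 540 fold changes under alternatives, all of genes called in the main fit of that comparison, 508 kept direction and side of the threshold and 32 lost the call. Genes not called in the main fit are outside this count, so calls gained under an alternative do not enter it. With 10 UMIs required in every sum only *Map1b* could be tested, so the higher calls fell from 8 to 1 in SGN-like cells against remaining and against SC/SGC-like cells and from 3 to 0 in OHC-like and IHC-like cells, and the lower calls from 1 to 0, 5 to 0, 3 to 1 and, for OHC-like against IHC-like cells, 1 to 0. Over all genes the 6 comparisons called 848, 682, 796, 704, 510 and 313 there, against 9509, 4423, 8921, 6617, 3784 and 965. With 3000 genes and 15000 UMIs the first 5 called 3706, 1903, 5709, 2580 and 1147, and thinned cells 4719, 1840, 4833, 2527 and 1302. In both, *Gap43* was not among the genes tested, so its lower call in SGN-like cells was absent (0). Both left 2 lower calls in OHC-like cells, and the former left 1 in IHC-like cells. In OHC-like cells DESeq2 gave 2 lower calls and the sums of the 2 sides alone 1 (2 against IHC-like cells). Without the replicate block, which pairs the sums of a library, lower calls in OHC-like cells were 3, and calls over all genes were 2485 for OHC-like against IHC-like and 526 for SC/SGC-like against remaining cells. Testing every gene with 1 UMI gave 1 higher call for OHC-like against IHC-like cells. A limit of 30% mitochondrial UMIs gave 2 higher calls (*Nefh*, *Nefm*) and 1996 over all genes in SC/SGC-like cells.

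Leaving out each library gave 8 to 8 higher and 0 to 1 lower calls in SGN-like against remaining cells (4896 to 10891 over all genes) and 802 to 5452 over all genes against SC/SGC-like cells. It gave 3 to 4 higher and 2 to 3 lower calls in OHC-like cells (5488 to 9557), 2 to 4 and 1 to 3 in IHC-like cells (2701 to 7397), 0 to 1 and 1 to 2 for OHC-like against IHC-like cells (776 to 5224), and 0 to 1 higher in SC/SGC-like cells (32 to 1630). Without a P28 library, SGN-like and SC/SGC-like cells have 1 sum, assumed to vary like the others. With SGN-like cells chosen by barcode markers, P28 means were 2442 CPM for *Nefl*, 2867 for *Nefh*, 627.8 for *Ina*, 698.5 for *Tubb3*, 473.7 for *Stmn2*, 1310.5 for *Stmn3*, 2016 for *Map1b* and 6.41 for *Gap43*. The alternatives without the *Mobp*-led, nucleus-like or *Ngfr*-led clusters were chosen after seeing the data. The causes of these shifts were not tested. SC/SGC-like sums hold 161354 and 87796 UMIs, so 1 UMI is 6.20 and 11.4 CPM there.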
